A study of Drosophila melanogaster with 9 samples.

Results

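The 8 genes described here encode the core proteins of the Drosophila small RNA pathways: drosha and pasha, Dcr-1 and Dcr-2, loqs and r2d2, and AGO1 and AGO2. They were chosen by name from 13968 protein-coding genes, and every peak over each gene and 2 kb to each side was examined. ATAC-seq had been run on Kc167 cells, so that accessible DNA was cut and tagged by Tn5 transposase. Kc167 is a single Drosophila melanogaster line of embryonic origin that resembles blood cells. M1BPKD cells were transfected with 20 µg of double-stranded RNA (dsRNA) against M1BP, Cp190KD cells with 12 µg of dsRNA against Cp190, and mock cells with no RNA, with 3 libraries in each group. All were harvested after 5 days at 25 °C. M1BP is a zinc finger protein that binds the core promoter sequence called Motif 1, and Cp190 is a cofactor of chromatin insulators. Both knockdowns received dsRNA and mock did not, so within either comparison with mock the depleted protein and the dsRNA itself cannot be told apart. Each library has its own list of accessible regions (peaks). The measures were whether a peak was present, how many bases it covered, and its percentile among the peaks of the same library by −log10 q, the caller's significance of the summit.

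The miRNA branch starts in the nucleus, where Drosha, an RNase III enzyme, and its RNA-binding partner Pasha cut primary miRNA transcripts into hairpins. Dcr-1 with the Loqs protein cuts those hairpins into miRNA duplexes, which are loaded mainly into AGO1. In the siRNA branch Dcr-2 cuts long dsRNA, such as that used for RNAi in these cells, R2D2 helps to load the siRNA, and AGO2 slices the matching transcript. Both branches are active in cultured Drosophila cells, and the siRNA branch also restrains viruses and transposons.

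The DNA around the transcript starts is given first, because the 3 genes whose promoter peak was missing from an M1BPKD library are the 3 that hold the core of Motif 1. The letters GGTCACAC, the core of Motif 1, were searched on both strands from 250 bases before to 50 bases after each annotated start. They stood near a start of 3 of the 8 genes, Dcr-1, Dcr-2 and pasha. Over all 13968 protein-coding genes they stood near a start of 1214 (8.69%), and over the 6450 genes with a promoter peak in all 3 mock libraries near a start of 1064 (16.5%). The palindrome TATCGATA, the DNA replication-related element (DRE), does not overlap that core, was present only at loqs among the 8, and stood near a start of 1419 of the 13968 genes (10.2%). Capitals mark these 2 motifs in the stretches below, which were read 5′ to 3′ along each gene's strand from the RefSeq sequence of the dm6 assembly. The Dcr-1 stretch, chr3R:22741092-22741149 on the minus strand, is the whole gap to the divergent start of CG6985. The pasha stretch, chr3R:31617901-31618000 on the plus strand, ends with the first 24 transcribed bases. AGO2 (chr3L:15554013-15554112, plus strand), r2d2 (chr2L:7800059-7800146, plus strand, the gap to the divergent start of Herp) and loqs (chr2L:13382412-13382491, plus strand) are shown as promoters without the Motif 1 core.
Dcr-1: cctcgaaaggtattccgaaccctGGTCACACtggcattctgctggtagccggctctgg
pasha: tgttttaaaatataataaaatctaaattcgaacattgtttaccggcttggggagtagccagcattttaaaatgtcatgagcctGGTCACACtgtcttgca
AGO2: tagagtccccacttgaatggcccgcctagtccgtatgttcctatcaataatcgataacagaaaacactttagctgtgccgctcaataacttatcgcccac
r2d2: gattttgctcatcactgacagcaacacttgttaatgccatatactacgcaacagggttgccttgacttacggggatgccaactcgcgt
loqs: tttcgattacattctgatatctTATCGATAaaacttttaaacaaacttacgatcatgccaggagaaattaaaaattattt

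With the start counted as base 1, the core begins at base -35 in Dcr-1 and at base 8 in pasha. A match describes these letters only, and their occupancy by M1BP was not tested here.

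On dm6, Dcr-1 spans 22734007 to 22741091 of chromosome 3R on the minus strand, and pasha 31617977 to 31622217 of the same chromosome on the plus strand, with 3 transcript starts. AGO2 lies at 15554113 to 15561042 of 3L, plus strand, with 2 starts. r2d2 (7800147 to 7802098, 2 starts) and loqs (13382652 to 13385671, 1 start) lie on the plus strand of 2L. On 2R lie AGO1 (13943387 to 13958089, minus strand, 3 starts), Dcr-2 (17574979 to 17581525, minus strand, 1 start) and drosha (7932429 to 7936840, plus strand, 1 start). In Dcr-2 the Motif 1 core stands on the strand opposite to the gene and begins at base -71.

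M1BPKD lists held 13464 to 15232 peaks, Cp190KD lists 18005 to 18625 and mock lists 17178 to 18959. Depth was also lowest in M1BPKD: the expected number of fragments over any base, recovered from the caller's statistics, was 32.3 ± 2.86 in M1BPKD, 43.3 ± 3.78 in Cp190KD and 40.6 ± 1.03 in mock (SD, n = 3 each). Fewer weak peaks are called at lower depth, so lengths and percentiles were also computed from lists of equal number. The promoter peak of M1BP ranked at percentile 64.5 ± 3.01 in M1BPKD, against 84.0 ± 5.88 in mock. That of Cp190 was at 86.4 ± 0.913 in Cp190KD, against 83.5 ± 0.276 in mock (SD, n = 3 each). A dsRNA acts on the transcript, so these promoter values do not measure the knockdown. Of 9 hemocyte markers 5 had a promoter peak in all 9 libraries (srp, ush, Pxn, Hml and eater), while 3 had none (He, NimC1 and Col4a1). Of 8 markers of neurons, muscle and germ cells, 5 had none and 1, elav, had one in every library.

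Across the 8 genes, the promoters fell into 3 kinds in M1BPKD cells. The promoter peaks of Dcr-1, Dcr-2 and pasha were absent from 1 M1BPKD library each and ranked far lower than in mock in the others. Those of AGO2 and drosha were present in all 3 but ranked lower than in mock, and those of AGO1 and r2d2 overlapped mock in percentile, although each changed in other measures given below. A lower rank was common: of 5580 genes with a promoter peak in all 9 libraries, 56.5% ranked lower without overlap. The median difference over those genes was −6.62 points. The start of loqs had no peak in any library. In Cp190KD cells every promoter with a peak in mock had one in all 3 libraries.

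**Figure D1:**
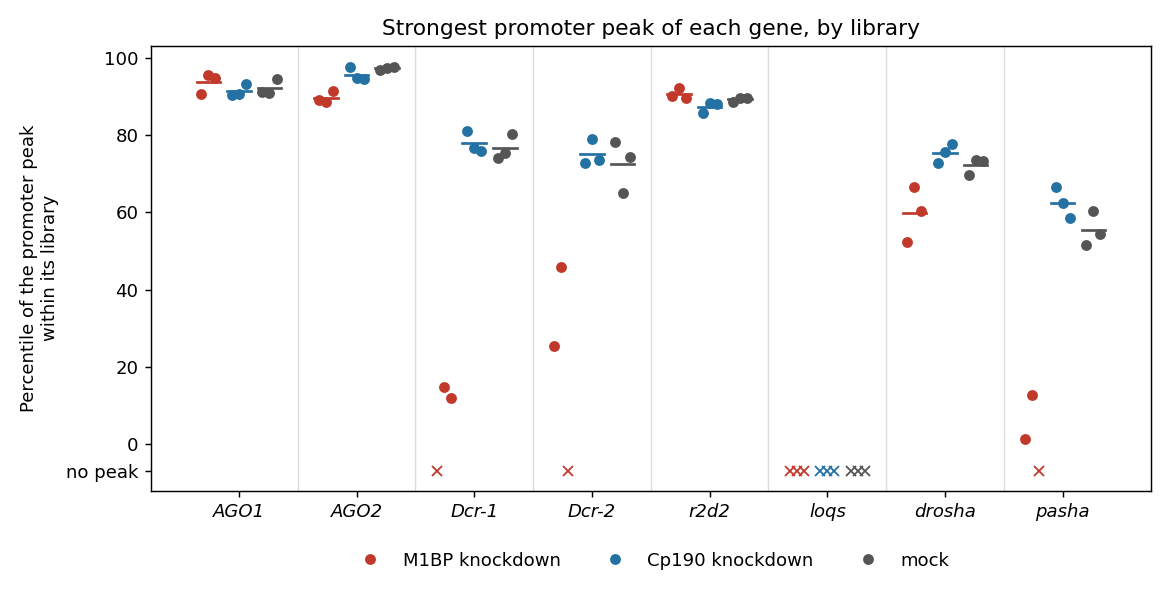
Percentile of the strongest peak within 100 bp of a transcript start among all peaks of its library (y axis) for the 8 genes (x axis), with 3 libraries per group as points, group means as bars where all 3 had a peak, and crosses for libraries with no peak. The M1BPKD points of Dcr-1, Dcr-2 and pasha lie between 1.40 and 45.9 or are missing, whereas the mock points of these genes lie between 51.4 and 80.1.

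The microprocessor genes differed from each other. The promoter peak of pasha, the strongest within 100 bp of any of its starts, ranked at percentiles 1.40 and 12.8 in M1BPKD replicates 1 and 2 and was absent from replicate 3. It ranked at 66.5, 62.3 and 58.4 in Cp190KD, and at 51.4, 60.2 and 54.4 in mock. Both M1BPKD values lay below every mock value, and the Cp190KD values overlapped those of mock. Its width was 194 and 284 bp in the 2 M1BPKD libraries that had it, 730, 746 and 437 bp in Cp190KD, and 390, 436 and 794 bp in mock. Over the summit stood 76 and 95 fragments in M1BPKD, 222 to 270 in Cp190KD and 189 to 219 in mock.

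A further peak lay upstream of pasha, within the neighbouring CG1792, with its summit at −743 bp from the pasha start. Its percentiles were also lowest in M1BPKD. It ranked at 18.9, 2.90 and 14.9 in M1BPKD, at 72.3, 71.7 and 73.2 in Cp190KD, and at 72.2, 76.5 and 73.0 in mock. The region at the shared start of CG1792 and Mnat9, at the edge of the pasha window, had a higher fold enrichment in M1BPKD. Its fold enrichment was 3.81, 3.27 and 2.71 in M1BPKD and 1.63, 1.77 and 1.76 in mock. The log2 difference was 0.65 (SE 0.090, limma adjusted p = 1.03e-05), and 29.8% of all start regions were called higher. The called peaks only partly coincided. In M1BPKD they spanned 31615898 to 31616345, 31615741 to 31616494 and 31615866 to 31616345. In mock they spanned 31615740 to 31615900, 31615713 to 31616280 and 31615713 to 31616011. The first of these mock peaks ended before the window, which begins at 31615977. The values may therefore come from different places within the region. The summit of the region held 168 ± 20.2 fragments in M1BPKD and 187 ± 11.9 in mock. Its local background was 51.1 ± 3.36 in M1BPKD and 108 ± 2.44 in mock (SD, n = 3 each). Relative to the genome-wide expectation its summit overlapped, at 4.12 to 6.21 in M1BPKD and 4.28 to 4.84 in mock. Within or at the edge of the pasha window, 1 region was thus called higher in fold enrichment. The M1BPKD percentiles of 2 other peaks lay below every mock value. Lower ranks were common: with absent peaks as 0, 51.3% of 7533 genes with any promoter peak ranked lower without overlap. That share covers promoter peaks only, and the peak at −743 bp does not lie at a start.

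The drosha promoter peak, which spans the divergent start of rnh1, was present in all 9 libraries. It ranked at 52.2, 66.6 and 60.4 in M1BPKD, 72.8, 75.6 and 77.7 in Cp190KD, and 69.7, 73.4 and 73.3 in mock. All 3 M1BPKD values lay below all 3 mock values, with a mean difference of −12.4 points and an exact two-sided permutation p of 0.1, which is the smallest that 3 libraries against 3 can give. With lists cut to the same number of peaks the difference was −5.65 points and the groups overlapped. The fold enrichment of this peak did not pass the test (log2 difference −0.07, SE 0.076, limma adjusted p = 0.478). Its strongest peak was 704, 810 and 805 bp wide in M1BPKD and 1120, 1118 and 1453 bp wide in mock. Past the 3′ end of drosha lay a peak at the starts of CG30380 and CG8728. Its fold enrichment was 3.54, 4.51 and 3.73 in M1BPKD and 3.44, 4.14 and 3.94 in mock, which overlap. After centring on the median of each library it was lower in M1BPKD than in mock. Its log2 difference was −0.23 (SE 0.098, limma adjusted p = 0.0478), and 27.5% of all start regions were called lower.

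Both Dicer genes had promoter peaks of lower rank in M1BPKD cells. The Dcr-1 peak, which reaches across the divergent start of CG6985, was absent at the start in M1BPKD replicate 1 and ranked at 14.9 and 12.0 in replicates 2 and 3. It ranked at 81.0, 76.7 and 75.8 in Cp190KD, and at 74.1, 75.3 and 80.1 in mock. Both M1BPKD values lay far below the lowest mock value. The replicate 3 peak ended 100 bp inside the gene, at the very edge of the promoter window. Fragments over the summit numbered 79 and 81 in the M1BPKD libraries with the peak, 268 to 295 in Cp190KD, and 228 to 268 in mock. In Cp190KD the strongest called peak was 1382, 1449 and 1368 bp wide, against 735, 1158 and 750 bp in mock. In mock replicates 1 and 3 the same region held a further called peak, of 157 and 320 bp. With all called peaks of the region counted, the width was 1400 ± 43.3 bp in Cp190KD and 1040 ± 136 bp in mock (SD, n = 3 each).

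The Dcr-2 promoter peak ranked at 25.4 and 45.9 in M1BPKD replicates 1 and 2 and was absent from replicate 3. In Cp190KD it ranked at 72.7, 79.0 and 73.5, and in mock at 78.2, 65.0 and 74.3. The highest M1BPKD value lay below the lowest mock value. Inside the first kb of the gene, in an intron 617 bp from the start, a second peak was called in M1BPKD replicates 1 and 2 and in all 3 Cp190KD libraries, and in no mock library. Its percentiles were 24.02 and 40.9 in M1BPKD and 28.1, 31.4 and 24.8 in Cp190KD. No other region of the 8 windows was called in 5 or more dsRNA-treated libraries and in no mock library. This peak was described after its values were seen, and the share of such regions over all gene windows is not given here. With peaks of −log10 q of at least 20, 0 regions of the windows were gained in Cp190KD. Downstream of Dcr-2 a peak at the start of Rab4 was present in every Cp190KD and mock library and in no M1BPKD library. Beyond it lay a peak at the starts of CG42239 and UQCR-6.4. Its fold enrichment was 3.36, 4.26 and 3.56 in M1BPKD and 4.13, 3.93 and 4.34 in mock, which overlap. After centring on the median of each library it was lower in M1BPKD than in mock. Its log2 difference was −0.42 (SE 0.087, limma adjusted p = 0.000496), and 27.5% of all start regions were called lower.

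**Figure D2:**
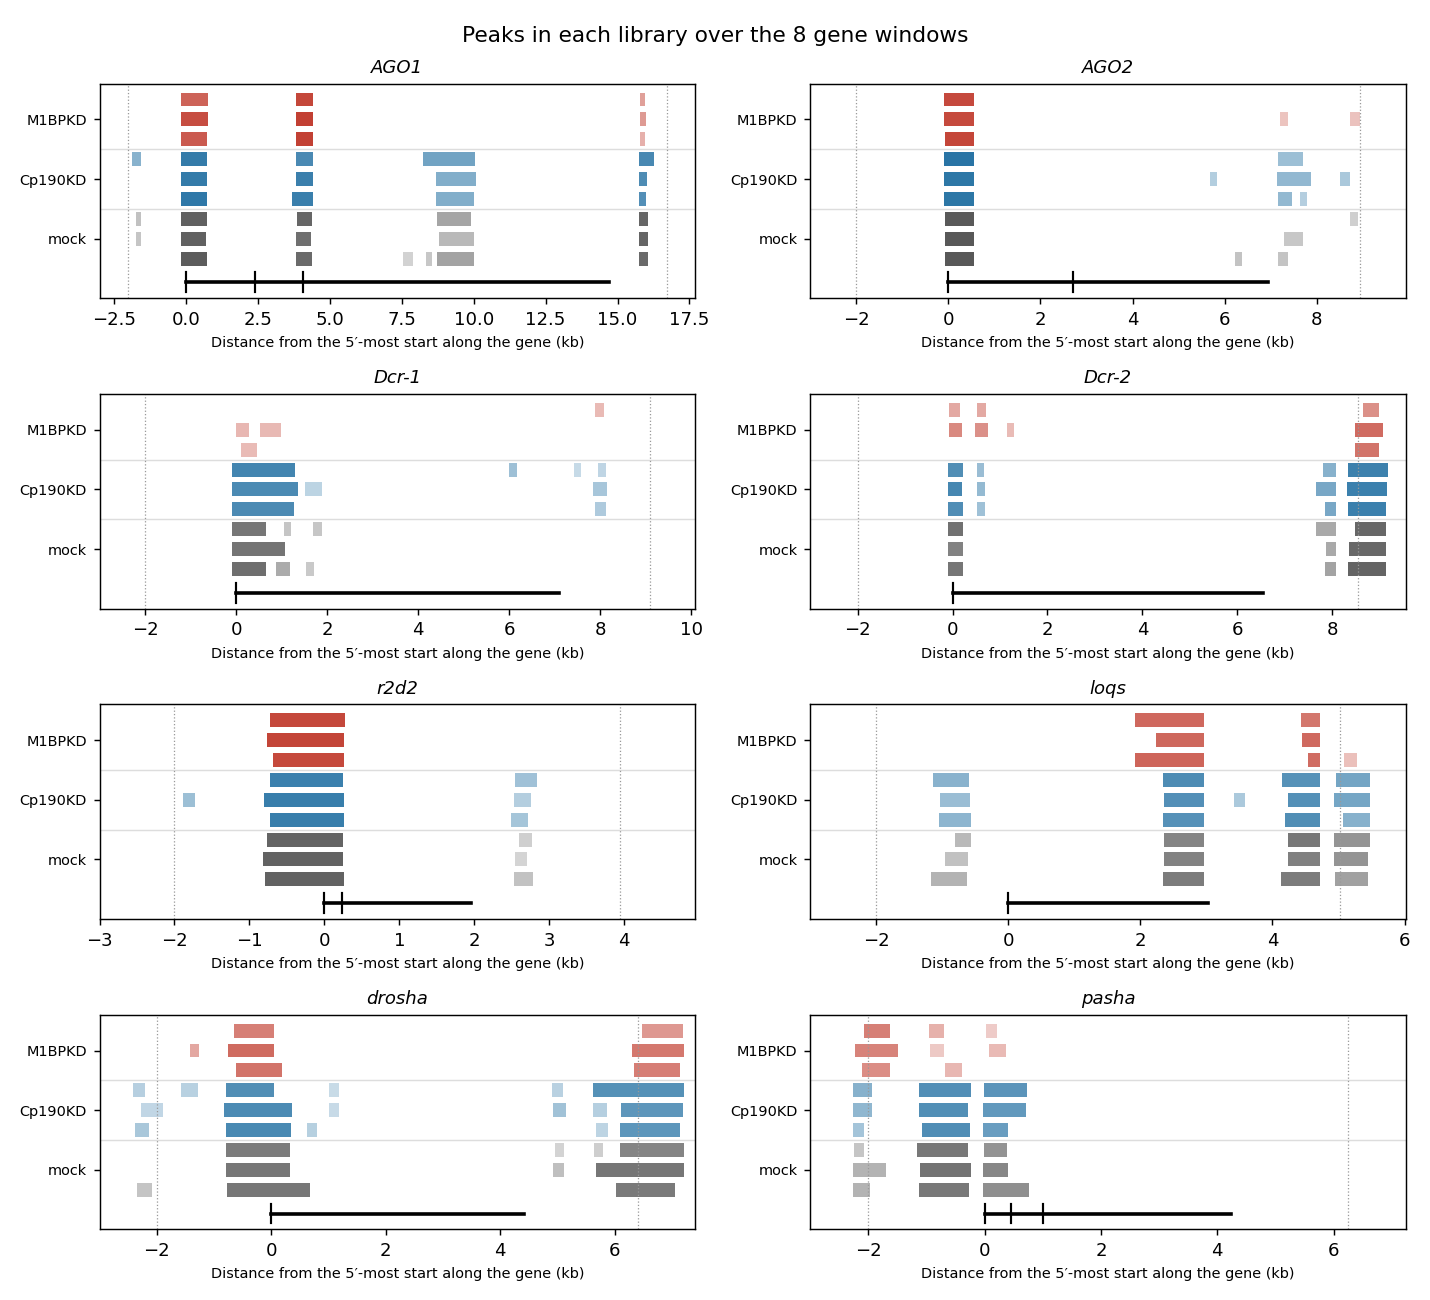
Peaks in each of the 9 libraries (rows, replicate 1 at the top of each group) over the 8 gene windows, placed by distance in kb from the 5′-most start along the gene (x axis). Darker blocks have higher percentiles, black lines are the genes, ticks their starts and dotted lines the window limits. Promoter blocks of Dcr-1, Dcr-2 and pasha are pale, short or missing in the M1BPKD rows, and the AGO1 intragenic block is missing there.

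The 2 dsRNA-binding partners kept their main peaks. The r2d2 promoter peak covers both r2d2 starts and the divergent starts of Herp. It ranked at 89.9, 92.1 and 89.6 in M1BPKD, at 85.7, 88.1 and 87.9 in Cp190KD, and at 88.6, 89.6 and 89.6 in mock. These M1BPKD and mock percentiles overlap, but counted from the strongest peak its place was 1355, 1200 and 1590 in M1BPKD and 2162, 1792 and 1925 in mock, without overlap. Its fold enrichment, the summit over the local background, was 8.32, 7.55 and 6.64 in M1BPKD, 3.95, 4.88 and 4.97 in Cp190KD, and 4.85, 4.80 and 4.85 in mock. Every M1BPKD value exceeded every other library's. The local background was 50.4 ± 3.84 fragments in M1BPKD, 87.9 ± 6.61 in Cp190KD and 71.1 ± 2.44 in mock, while the summit held 383 ± 29.1 fragments in M1BPKD, 406 ± 36.0 in Cp190KD and 347 ± 12.3 in mock (SD, n = 3 each). Relative to each library's genome-wide expectation, the summit stood at 11.9 ± 1.73 in M1BPKD and 8.55 ± 0.190 in mock. A weak peak beyond the 3′ end of r2d2, in an exon of Cdc14, was called in all Cp190KD and mock libraries and in no M1BPKD library, at percentiles of at most 14.5 in mock.

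For loqs no peak lay within 100 bp of its start in any of the 9 libraries. The nearest upstream peak, in an exon of beta'COP with its summit at −723 bp from it, was called in all Cp190KD libraries at percentiles 38.4, 27.6 and 36.0. It was also called in all mock libraries, at 21.6, 15.01 and 26.5, and in no M1BPKD library. The peak within the gene lay at the 3′ end of loqs, over the start of the antisense RNA asRNA:CR44599. It ranked at 67.9, 68.5 and 70.3 in M1BPKD, 74.2, 71.1 and 69.7 in Cp190KD, and 63.1, 64.9 and 69.3 in mock. In M1BPKD it was 1038, 729 and 1037 bp wide, against 599, 607 and 612 bp in mock, so that within the gene body loqs had more bases under peaks in every M1BPKD library than in any mock library. ATAC-seq has no strand, so the peak cannot be assigned to loqs or to its antisense RNA. Beyond the 3′ end of loqs, a peak at the start of Ing5 ranked above it in every mock library. The Ing5 peak was at 58.3, 67.7 and 65.4 in M1BPKD, 69.4, 70.6 and 73.1 in Cp190KD, and 72.8, 66.6 and 69.8 in mock.

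AGO1, the main miRNA carrier, has separate peaks at 2 of its starts. The distal peak, at the start at 13958089, had a fold enrichment of 4.13, 4.46 and 3.86 in M1BPKD, 3.60, 4.10 and 4.46 in Cp190KD, and 4.07, 3.83 and 4.35 in mock. The inner peak, at the start at 13954025 and shared with the divergent starts of mRpL53 and CG33155, had 7.53, 7.09 and 7.29 in M1BPKD, 3.19, 4.36 and 4.49 in Cp190KD, and 4.21, 3.54 and 3.81 in mock. The inner values in M1BPKD did not overlap those of the other groups. The strongest peak of the gene was the distal one in all mock and Cp190KD libraries and the inner one in all M1BPKD libraries. As a result the percentile of the strongest AGO1 promoter peak, 90.6, 95.4 and 94.7 in M1BPKD against 91.2, 90.8 and 94.4 in mock, compares different starts. Start by start the percentiles did not overlap, with the inner peak at 90.6 to 95.4 in M1BPKD and 79.7 to 86.6 in mock, and the distal peak at 71.5 to 86.6 in M1BPKD and 90.8 to 94.4 in mock.

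Taken start by start, in a fit over 5296 regions at protein-coding starts, the inner AGO1 peak was higher in M1BPKD than in mock by 0.66 on the log2 scale (SE 0.083, limma adjusted p = 3.53e-06). After centring on library medians the distal peak fell by 0.24 (SE 0.071, limma adjusted p = 0.00796), a call lost without mock replicate 3 (adjusted p = 0.0531). Without centring its difference was 0.02 in the other direction (adjusted p = 0.860), while the inner peak remained higher. Over all start regions 29.8% were called higher and 27.5% lower. At the inner start the summit held 482 ± 56.0 fragments in M1BPKD and 340 ± 21.9 in mock, and at the distal start 383 ± 94.2 in M1BPKD and 502 ± 47.6 in mock (SD, n = 3 each). Relative to each library's genome-wide expectation the distal summit stood at 11.9 ± 2.94 in M1BPKD and 12.3 ± 0.876 in mock, which overlap. Within the AGO1 gene, a broad peak of 1206 to 1308 bp in mock and 1332 to 1813 bp in Cp190KD, with its summit 5629 bp from the nearest AGO1 start, was in no M1BPKD library. Past the 3′ end the peak at a start of shot was lower in M1BPKD than in mock (log2 difference −1.22, SE 0.085, limma adjusted p = 4.25e-09).

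AGO2, the siRNA slicer, had the strongest promoter of the set in mock cells. Its peak at the upstream start ranked at 89.0, 88.6 and 91.3 in M1BPKD, at 97.5, 94.7 and 94.5 in Cp190KD, and at 96.7, 97.4 and 97.5 in mock. The M1BPKD values did not overlap those of the other groups, and the difference from mock was −7.57 points (exact permutation p = 0.1). The uncentred fold enrichment was 9.57, 7.83 and 8.23 in M1BPKD, 8.56, 8.66 and 8.75 in Cp190KD, and 8.90, 8.99 and 9.27 in mock, where M1BPKD and mock do overlap. The peak itself kept its width, 639 to 648 bp in M1BPKD and 639 to 645 bp in mock. Its summit stood at 10.3 ± 0.981 times the genome-wide expectation in M1BPKD and 9.32 ± 0.211 times in mock (SD, n = 3 each), so its lower standing in M1BPKD is relative to the other peaks of those libraries. No peak lay at the inner start of AGO2, at 15556823.

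M1BP knockdown against mock was then read against all genes. Covered length, the bases under peaks in the window, was lower without overlap in 6 of the 8 genes (AGO1, Dcr-1, r2d2, loqs, drosha and pasha) and higher in none. Over 11656 genes with a peak in any library, 52.3% were lower without overlap and 6.98% higher. AGO1 had the largest difference, with 1716, 1727 and 1661 bp in M1BPKD against 3116, 3129 and 3652 bp in mock. The median difference was −538 bp over the 8 genes and −266 bp over all genes tested. With equal numbers of peaks from each library 3 of the 8 were lower. Counted over gene bodies with no flank, r2d2 (16.3 bp) and loqs (329 bp) were higher in M1BPKD without overlap, and with 1 kb flanks the loqs difference was 6 bp. Of 32 merged regions in the 8 windows, 4 were lost in M1BPKD (called in all 3 mock libraries and no M1BPKD library) and none was gained, against 9.52% lost and 3.23% gained over regions in all gene windows.

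**Figure D3:**
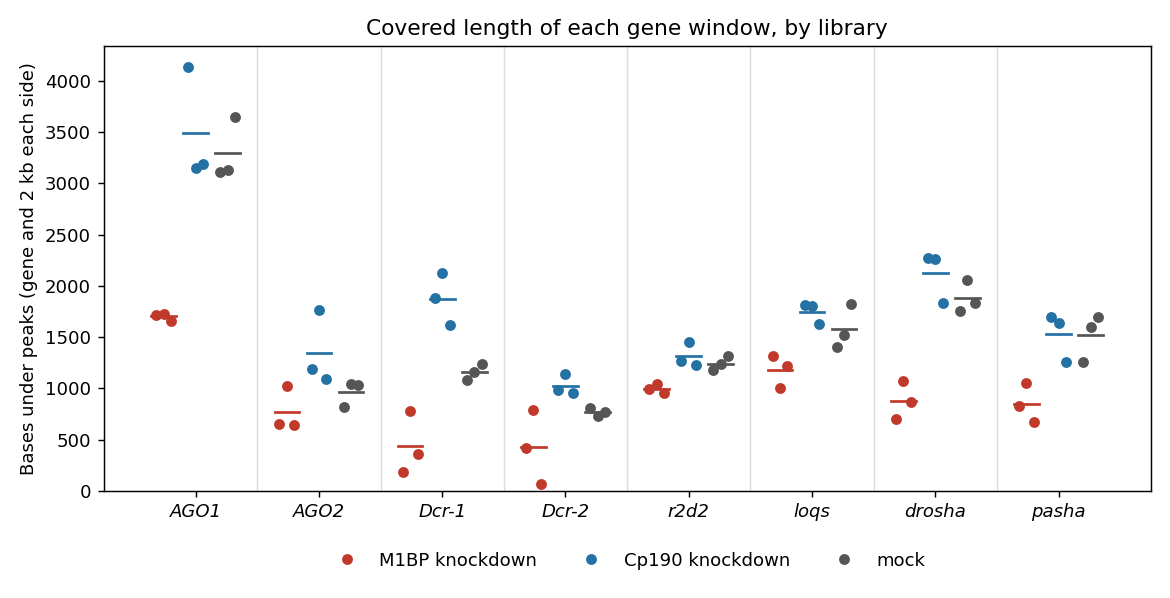
Bases under peaks in each gene window, the gene and 2 kb each side (y axis, from 0), for the 8 genes (x axis), with 3 libraries per group as points and group means as bars. For AGO1 the M1BPKD libraries lie between 1661 and 1727 bp and the mock libraries between 3116 and 3652 bp.

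Only 4 of the 8 genes had a promoter peak in all 9 libraries (AGO1, AGO2, r2d2 and drosha), as did 5580 genes in all. Of these 4, AGO2 and drosha had a lower percentile in M1BPKD without overlap and none a higher one, against 56.5% lower and 12.6% higher over the 5580 genes. When genes with a promoter peak in any library were included and an absent peak was set to 0, a choice made after the gaps were seen, 5 of 7 genes were lower and none higher, against 51.3% and 11.9% of 7533 genes. The differences were −67.6 points for Dcr-1, −48.7 for Dcr-2, −50.6 for pasha, −12.4 for drosha and −7.57 for AGO2. The median over all 7533 genes was −7.12 points. Calls of a lower percentile were common over all genes. The differences of Dcr-1, Dcr-2 and pasha, each with an absent peak set to 0, were several times that median.

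Fold enrichment was tested with limma on log2 values centred on the median of each library. In M1BPKD that median lay 0.285 above mock on the log2 scale, and changes are relative to it. Against mock, AGO1 was higher by 0.55 (SE 0.073, adjusted p = 3.22e-05), with the inner start in M1BPKD set against the distal start in mock as above, and r2d2 by 0.34 (SE 0.063, adjusted p = 0.000485), in all 3 M1BPKD libraries. AGO2 fell by 0.37 (SE 0.079, adjusted p = 0.00131). Of all 5580 genes 26.5% were called higher and 26.1% lower, so that calls in either direction were common. Without centring the AGO2 difference was −0.09 (adjusted p = 0.474), and its call was lost.

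Dcr-1, Dcr-2 and pasha could be fitted only without the M1BPKD library that lacked their peak, which leaves 2 M1BPKD libraries and takes out the lowest value. In those fits Dcr-1 was lower than in mock (log2 difference −1.09, SE 0.074, limma adjusted p = 1.71e-07, without replicate 1). Dcr-2 differed by −0.70 (SE 0.112, limma adjusted p = 0.000279) and pasha by −0.70 (SE 0.093, limma adjusted p = 8.37e-05), both without replicate 3. In the same fits their Cp190KD differences from mock were 0.01, 0.07 and 0.10, none past the threshold. The shares of all genes called in these fits are not given here. In the fit with all 9 libraries, 26.1% of 5580 genes were called lower in M1BPKD than in mock and 26.5% higher.

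**Figure D4:**
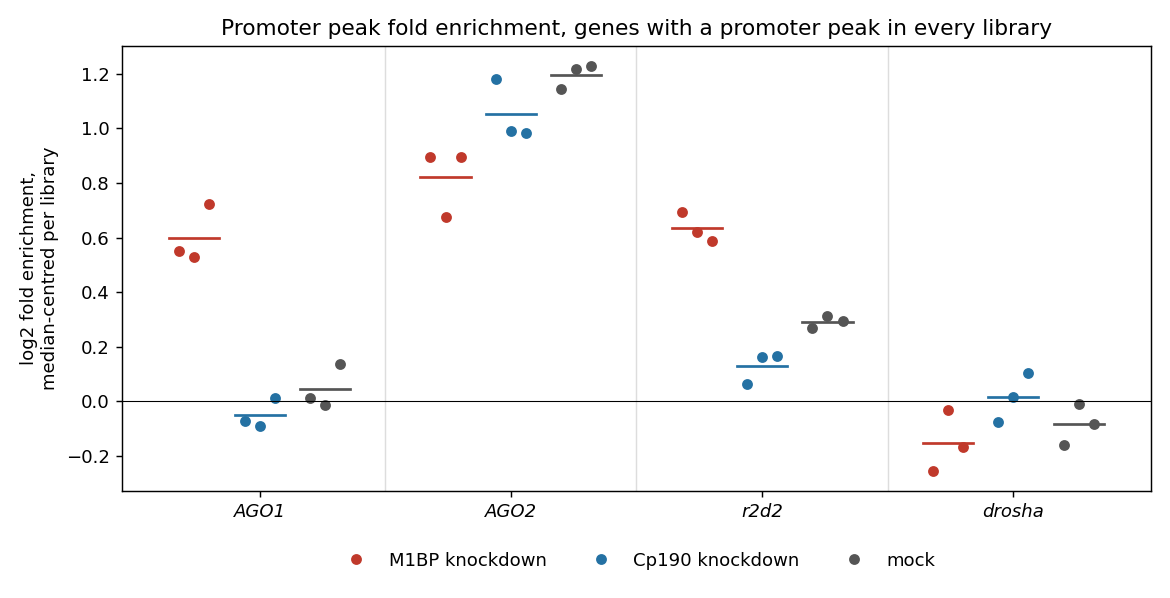
Log2 fold enrichment of the strongest promoter peak, centred on the median of each library (y axis), for the 4 genes with a promoter peak in every library (x axis), with 3 libraries per group as points and group means as bars. AGO1 averages 0.60 in M1BPKD and 0.05 in mock, r2d2 0.63 in M1BPKD and 0.29 in mock, and AGO2 0.82 in M1BPKD and 1.20 in mock.

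Cp190 knockdown against mock gave fewer calls in these genes. Covered length was higher without overlap in 3 of the 8 genes, against 13.8% of all genes tested, and lower in none, against 7.73%. The 3 were AGO2, with 1187, 1760 and 1088 bp in Cp190KD against 817, 1041 and 1037 bp in mock, and both Dicer genes. The AGO2 difference was −2 bp over the gene body with no flank and 5.33 bp with peaks of −log10 q of at least 20, and groups then overlapped. Dcr-1 had 1886, 2124 and 1617 bp in Cp190KD against 1079, 1158 and 1239 bp in mock. Dcr-2 had 979, 1137 and 950 bp in Cp190KD against 807, 733 and 765 bp in mock. The Dcr-2 difference was 198 bp with equal numbers of peaks from each library. It was 194 bp with only peaks whose summit lay in the window, and in both settings the groups overlapped. Without mock replicate 3 the count of genes with higher covered length was 5.

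Of 37 merged regions in the windows, 2 were gained in Cp190KD and none lost, against 1.16% gained and 2.32% lost over all gene windows. They were the Dcr-2 intron peak above and a weak peak past the 3′ end of Dcr-1, in an intron of Takl2. The promoter percentile was lower without overlap in r2d2 alone, with a difference of −2.05 points, and higher in none, against 5.56% lower and 10.5% higher of 5580 genes. By limma none of the 4 genes was called in fold enrichment, against 0.341% higher and 1.11% lower of all genes. Only r2d2 had an unadjusted p under 0.05 (log2 difference −0.16, SE 0.063, limma adjusted p = 0.467).

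The 6 dsRNA-treated libraries together were set against the 3 mock libraries, since both knockdowns received dsRNA and mock did not. No gene had a covered length outside the mock range in all 6 libraries in either direction, against 3.77% lower and 1.25% higher of all genes. No promoter percentile did so either, against 4.00% lower and 2.04% higher. AGO2 came nearest in percentile, with a difference of −4.59 points in the 6 libraries (exact two-sided permutation p = 0.0714, where the smallest possible is 0.0238). In fold enrichment AGO1 was called higher by 0.23 (SE 0.063, limma adjusted p = 0.0158) and AGO2 fell by 0.26 (SE 0.068, limma adjusted p = 0.0135), against 12.9% higher and 14.4% lower of all genes. For AGO1 the M1BPKD mean was 0.60 and the Cp190KD mean −0.05, on either side of the mock mean of 0.05, and the strongest peak lay at the inner start in M1BPKD only. The pooled AGO1 call was lost without mock replicate 1 (adjusted p = 0.0654) or 2 (0.0886). That of AGO2 was lost without mock replicate 2 (adjusted p = 0.0618) or 3 (0.0647) and without centring (0.507).

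Set against each other, the knockdowns differed at 3 of the 4 promoters, in a contrast between dsRNA-treated cells only, against 26.1% called higher and 25.5% lower of all 5580 genes. AGO1 was higher in M1BPKD than in Cp190KD by 0.65 (SE 0.073, limma adjusted p = 8.93e-06), with the inner start in M1BPKD set against the distal start in Cp190KD. Start by start the difference was 0.69 at the inner start (SE 0.083, limma adjusted p = 2.15e-06) and −0.15 at the distal start (SE 0.071, limma adjusted p = 0.0771), against 29.3% called higher and 26.4% lower of all start regions. The r2d2 peak was higher by 0.50 (SE 0.063, limma adjusted p = 2.35e-05). AGO2 fell by 0.23 (SE 0.079, limma adjusted p = 0.0258), a call lost without M1BPKD replicate 2 (adjusted p = 0.0951), without Cp190KD replicate 1 (0.114) and without centring (0.864). The drosha peak differed by −0.17 (SE 0.076, limma adjusted p = 0.0816). The 2 groups differed in the target of the dsRNA and in its dose, 20 µg in M1BPKD and 12 µg in Cp190KD. The cause of these differences was not tested.

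The 3 genes with the Motif 1 core were the 3 that missed a promoter peak in an M1BPKD library, and none of the 4 other genes with promoter peaks did. Among all 1064 genes with the core and a promoter peak in all 3 mock libraries, 16.2% lacked one in at least 1 M1BPKD library, against 11.3% of the 5386 genes without the core. In Cp190KD these shares were 1.69% with the core and 3.55% without. The median change in percentile from mock to M1BPKD, with absent peaks as 0, was −15.2 points with the core and −7.53 without. Dcr-1, Dcr-2 and pasha, at −67.6, −48.7 and −50.6, lay below the lower quartile of the genes with the core, which is −31.0. Most genes with the core thus kept their promoter peak. The 3 genes were singled out by a missing peak, which counts as 0 in this measure. Their low place among the genes with the core is therefore not independent of that choice.

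**Figure D5:**
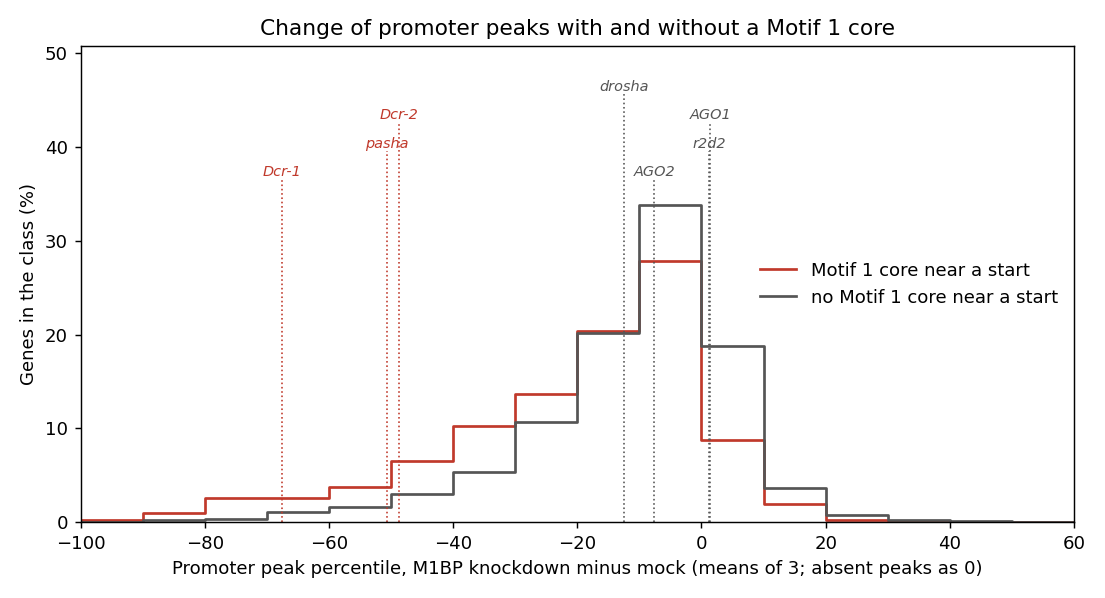
Share of genes (y axis, percent) by change in promoter peak percentile, M1BPKD minus mock, means of 3 with absent peaks as 0 (x axis, in steps of 10 points), for genes with (red) and without (grey) the Motif 1 core near a start. Dotted lines mark the 7 genes of the set with a promoter peak in mock, with Dcr-1 at −67.6 on the left and AGO1 at 1.43 on the right.

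Other genes of the pathways were counted from 2 lists. Of 20 cofactors of RNAi and miRNA function 18 had a promoter peak in all 9 libraries. In M1BPKD against mock 7 of the 18 were called lower and 3 higher by limma, with a median of −0.03 on the log2 scale, against 26.1% lower and 26.5% higher of all 5580 genes. The most changed were armi, an RNA helicase (log2 difference −0.94, SE 0.067, adjusted p = 1.57e-07), Hen1, the methyltransferase that protects siRNA ends (−0.85, SE 0.095, adjusted p = 1.03e-05), blanks, a dsRNA-binding protein (−0.62, SE 0.091, adjusted p = 8.02e-05), and Ranbp21, the Exportin-5 that carries miRNA hairpins out of the nucleus (0.45, SE 0.078, adjusted p = 0.000311). Of 26 piRNA pathway genes, which act mainly in the gonad, 16 could be tested, and 5 were lower and 6 higher, with a median of 0.05, against the same shares of all genes. Among them rhi, which marks dual-strand piRNA clusters, was lower (−0.94, SE 0.105, adjusted p = 1.02e-05). Panx, a silencing cofactor of Piwi, was higher (0.57, SE 0.070, adjusted p = 2.06e-05), as was fs(1)Yb, a Tudor-domain protein of somatic gonad cells (0.53, SE 0.089, adjusted p = 0.000243), and vret was lower (−0.47, SE 0.075, adjusted p = 0.000151). In Cp190KD against mock limma called none of either list at an adjusted p of 0.05, with 1 cofactor gene and 0 piRNA genes at an unadjusted p below 0.05.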

How the data were processed

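Reads were trimmed by the authors with cutadapt 1.8.1. They aligned pairs to dm6 with Bowtie2 2.3.5, filtered them with SAMtools 1.9 and Picard, and called peaks in each library with MACS2 2.2.5, without a control library and at a q-value threshold of 0.0001. Whether cut positions were shifted for Tn5 was not given in the sources used here. The deposited lists give peak limits and summit offsets, −log10 p and −log10 q, the ratio of summit to local background (fold enrichment), and a score. Whole fragments at summits were recovered from fold enrichment and −log10 p.

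Genes and starts were those of Ensembl release 115 on the same assembly. Peaks counted at an overlap of 1 bp, promoters reached 100 bp to each side of a start, and windows 2 kb beyond a gene. Group means were compared by exact permutation tests. A length or percentile was called where the groups did not overlap. Fold enrichment was fitted with limma 3.58.1 (R 4.3.3) over all 9 libraries and all genes with a promoter peak in each, with Benjamini-Hochberg adjustment and a threshold of 0.05, and the fit was tested on simulated data. With 3 libraries a group, p-values measure the spread between 3 biological replicates. Python 3.11.15 with pandas 2.3.3, numpy 2.4.6, scipy 1.17.1 and matplotlib 3.10.9 was used. The members and gene lists were chosen with earlier results of these data known. All 8 genes, the 2 targeted genes and at most 4 called genes per list, by size of change, are named. Some but not all neighbours with a start under a peak are named. The markers and the genes under other observations are named in addition.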

Additional observations from a re-analysis of the deposited data

Results flagged for a closer look

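Between the knockdowns, promoter fold enrichment differed in 3 genes by limma over 5580 genes: AGO1 by 0.649, r2d2 by 0.503 and AGO2 by −0.229 on the log2 scale, M1BPKD minus Cp190KD. Of all 5580 genes 26.1% were called higher and 25.5% lower in that contrast. The AGO1 value sets the inner start in M1BPKD against the distal start in Cp190KD. The AGO2 call was lost without M1BPKD replicate 2 (adjusted p = 0.0951), without Cp190KD replicate 1 (0.114) and without centring (0.864). The covered length of Dcr-1 was lower than in any mock library in all 3 M1BPKD libraries and higher than in any mock library in all 3 Cp190KD libraries. The 2 differences from mock lay −1437 bp apart, and that difference was not tested.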

How the results depend on the processing

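For M1BPKD against mock, cutting each list to the same number of peaks left 3 genes lower in covered length, 1 lower and 1 higher in percentile, and 2 regions lost. A −log10 q of at least 20 left 1 gene lower and 1 higher in percentile and gave 1 region gained. Percentiles of fold enrichment gave 1 lower and 2 higher, and ranks from the strongest peak 1 lower and 1 higher. Absent peaks as 0 gave 5 lower. Gene bodies with no flank gave 2 genes with longer cover and 1 lost region. There the r2d2 difference turned to 16.3 bp and that of loqs to 329 bp, and with 1 kb flanks that of loqs was 6 bp. For Cp190KD, a −log10 q of at least 20 left 0 genes lower in percentile and 0 regions gained, percentiles of fold enrichment gave 1 higher, and 1 region remained gained with gene bodies alone or equal lists. With gene bodies alone AGO2 cover in Cp190KD turned to −2 bp. The cause of these changes was not tested. The lists of equal number and the stricter q hold fewer peaks by construction.

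Leaving out 1 library at a time, for M1BPKD against mock 6 to 8 genes were lower in cover, 2 to 4 lower and 0 to 1 higher in percentile, 3 to 5 called in fold enrichment, and 4 to 6 regions lost and 0 to 1 gained. The upper counts without M1BPKD replicate 3 add Dcr-2 and pasha, which could then be fitted. For Cp190KD, 3 to 5 genes were higher in cover, and 1 to 2 lower and 0 to 1 higher in percentile. For both knockdowns 0 to 1 were lower in percentile and 0 to 4 called in fold enrichment, and between the knockdowns 2 to 5.

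Replicate numbers did not pair the libraries: deviations of same-numbered libraries correlated at 0.0320 to 0.119 for M1BPKD and −0.206 to 0.00452 for Cp190KD. With a replicate block, counts changed past the limit of 1.5 times only for Cp190KD (2 lower and 1 higher in percentile) and for both knockdowns (2 lower in cover, 2 lower in percentile), where 3 pairs allow no p under 0.25. The block changed no limma call at the promoters of the 8 genes. It added 1 in the AGO1 window, the start of shot, in Cp190KD against mock (−0.32, adjusted p = 0.0296, against 0.0554 without the block), a call also made without Cp190KD replicate 1 (0.0421). Without centring, an alternative added after seeing the data, the distal AGO1 peak in M1BPKD against mock turned to 0.0236.

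Peaks just above the calling threshold limit what can be said. An absent peak means that the caller's threshold was not reached at that library's depth, which was lowest in M1BPKD, not that the DNA was closed. Signal below the threshold was not analysed here.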

Other observations

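In the 2 pathway lists some promoters had a peak in most or all libraries of 1 group and few or none of another. Of 7533 genes with any promoter peak, 4.04% had one in all 3 mock and no M1BPKD library and 1.61% the reverse, and 0.319% had one in all 3 Cp190KD and no mock library. The promoter of del, a partner of rhi in piRNA cluster transcription, had a peak in 3 of 3 Cp190KD and 3 of 3 mock libraries and in 0 of 3 M1BPKD libraries. AGO3, a piRNA-loaded Argonaute, had one in 1 of 3 M1BPKD libraries and in all Cp190KD and mock libraries. In contrast qin had a promoter peak in 3 of 3 M1BPKD and 2 of 3 Cp190KD libraries and in 0 of 3 mock libraries. The promoter of me31B, a helicase of cytoplasmic RNA granules, had one in 3 of 3 Cp190KD libraries and in 0 of 3 M1BPKD and 0 of 3 mock libraries. These 4 genes were chosen after their values were seen. piwi, cuff and moon had no promoter peak in any library.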
